A study of Mus musculus with 16 samples.

Results

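GFP-positive cells sorted from mouse retinal organoids as rods were compared between day 25 and day 18 of differentiation, with 3 libraries at day 25 and 5 at day 18, together 8 of the 16 libraries of the series. The libraries were chosen by the day in their titles, and the source of the cells was a covariate in the test of day. The organoids were made from mouse ESCs, embryonic stem cells, or from iPSCs, stem cells reprogrammed from body cells. Day 25 had 1 ESC and 2 iPSC libraries, and day 18 had 3 ESC and 2 iPSC libraries. All carried Nrlp-GFP, a green fluorescent protein under the promoter of Nrl, and every library is polyA RNA of flow-sorted GFP-positive cells. The ESC clones came from blastocysts of Nrl-GFP transgenic mice, and the iPSC clones from embryonic fibroblasts of such mice made with Oct3/4, Sox2, Klf4 and c-Myc. Organoids of both ages were grown as serum-free floating aggregates (SFEBq) and were kept at low oxygen early in culture. Both had retinoic acid, taurine and fresh β-mercaptoethanol in the medium at the time of collection, per the labels' protocols. The labels name no clone for a library and do not say that libraries of one group were grown apart. The p-values therefore cover the spread among these libraries, and that spread can be technical.

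Rods are the photoreceptors of dim light. Newborn rod precursors leave the cell cycle and express Nrl, which with Crx and Nr2e3 turns on rod genes and keeps cone genes low. Light caught by a rod activates transducin, which activates a phosphodiesterase made of the Pde6a, Pde6b and Pde6g proteins. The fall in cyclic GMP closes a channel made of Cnga1 and Cngb1. The proteins sit in the outer segment, a modified cilium of stacked membrane discs, and the cell signals on at a ribbon synapse.

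Levels are CPM, a library's counts scaled for its size, and were back-transformed from the authors' deposited gene table. Summed over the table they came to 738450 to 833581 at day 25 and 642418 to 810515 at day 18. The columns thus do not share a total. Differences are log2(CPM + 1) at day 25 minus that at day 18, and the added 1 shrinks the differences of low genes. The rebuilt library totals were 5632735 to 13561369 estimated counts at day 25 and 4212969 to 21874196 at day 18. The day 18 libraries were not alike, and 4 of them bear on the results. Nrl was at 17.7 CPM in the library labelled ESC day 18 replicate 1, at 15.99 CPM in the one labelled iPSC day 18 replicate 1, and at 136 to 881 CPM in the remaining 3. This low-Nrl pair was closer to each other (Pearson r = 0.992 across 15202 genes, which are not independent replicates) than to others of their own label. The library labelled iPSC day 18 replicate 2 was close to that labelled iPSC day 25 replicate 1 (r = 0.979). ESC day 18 replicate 2 held 1554 CPM of Ttr, listed here with pigment epithelium, and 90.1 CPM of Col3a1, listed with fibroblasts. All 5 fibroblast genes were highest of day 18 in that library. Of the 7 pigment epithelium genes tested, only 2 were, and 4 were highest in ESC replicate 3. The Y-linked gene Eif2s3y was at 76.6 CPM in ESC day 25 and at 14.6 and 0.193 CPM in iPSC day 25 replicates 1 and 2. At day 18 it was at 0.703, 52.7 and 51.4 CPM in ESC replicates 1, 2 and 3, and at 0.081 and 72.0 CPM in iPSC replicates 1 and 2. On days 21, 28 and 35 it was at 36.0 to 114 CPM in the ESC libraries and at 0.0457 to 1.44 CPM in the iPSC libraries. At day 18 ESC replicate 1 and iPSC replicate 2 thus each had a level seen in the other source. The 14.6 CPM of iPSC day 25 replicate 1 lay between the sources. Whether the labels of ESC replicate 1 and iPSC replicate 2 of day 18 were exchanged was not tested, and the source term, the values within a source and the interaction rest on the labels as given. Pde6g and Cnga1, genes of rod phototransduction, were under 1 CPM in the low-Nrl pair, so the samples are called GFP-positive libraries and not rods. Some results are given with and without these libraries. Among list medians, only those of cell cycle and retinal progenitor genes are also given without the low-Nrl pair. The medians of the photoreceptor lists include it.

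At day 25, 6 genes rose relative to day 18, 0.0395% of the 15202 genes tested, and 0 (0%) fell, by limma at an adjusted p (Benjamini-Hochberg) under 0.05. The genes were Pde6a, the rod phosphodiesterase alpha subunit, Dgkk, a kinase of the lipid messenger diacylglycerol, and Tub, the tubby protein, whose loss in mice leads to retinal degeneration. The remaining members were Rnf207, a RING finger protein, Rasgef1a, an exchange factor of Ras-like GTPases, and Lrrc27, a protein with leucine-rich repeats. At an unadjusted p under 0.05 the limma count was 3707 genes, 24.4% of those tested, with 2043 (13.4%) higher and 1664 (10.9%) lower at day 25. The edgeR quasi-likelihood test on sums of estimated counts called 6 of 9321 genes (0.0644%), all higher and 4 of them shared. DESeq2 on the same sums called 957 of 8894 (10.8%), with 549 higher and 408 lower, and 5 of the 6 limma genes among them. Pde6a was not among the genes tested on these sums.

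Pde6a was at 8.21 CPM in the ESC library and 9.56 and 23.9 CPM in the iPSC libraries of day 25. Pde6a was at 0.21, 1.18 and 0 CPM in the ESC libraries and 0 and 1.96 CPM in the iPSC libraries of day 18. All day 25 values lay above all day 18 values. The mean was 13.9 ± 8.68 CPM (SD, n = 3) at day 25 and 0.669 ± 0.869 CPM (SD, n = 5) at day 18 (log2 difference 3.00, SE 0.41, limma adjusted p = 0.035). The day 18 values rest on 0 to 53 estimated counts, and the 2 libraries at 0 allow up to 0.378 and 0.122 CPM at a limit of 3 counts, which covers counting error only.

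Dgkk was the tightest of the 6 at day 25, with 17.1 CPM in the ESC library and 18.7 and 15.2 CPM in the iPSC libraries. Dgkk was at 0.757, 2.39 and 1.43 CPM in the ESC libraries and 1.22 and 2.91 CPM in the iPSC libraries of day 18. Its log2 difference was 2.66 (SE 0.37, limma adjusted p = 0.035). The gap between the lowest day 25 and the highest day 18 library was 2.05 on the log2 scale. It was the widest among genes with a mean of at least 5 CPM, predicted gene models left out, in which day 25 lay wholly above day 18.

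Tub was at 345 CPM in the ESC library and 225 and 437 CPM in the iPSC libraries of day 25. Tub was at 69.2, 52.9 and 70.2 CPM in the ESC libraries and 66.3 and 109 CPM in the iPSC libraries of day 18 (log2 difference 2.08, SE 0.30, limma adjusted p = 0.035). Of the day 18 values, 4 lay between 52.9 and 70.2 CPM, and the highest, iPSC replicate 2, was still below every day 25 value. Rnf207 had the largest difference of the 6, with 151 CPM in the ESC library and 54.0 and 96.6 CPM in the iPSC libraries of day 25. Rnf207 was at 3.00, 5.36 and 2.71 CPM in the ESC libraries and 2.97 and 22.6 CPM in the iPSC libraries of day 18 (3.81, SE 0.57, limma adjusted p = 0.037). Here too iPSC day 18 replicate 2 stood above the other day 18 libraries.

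Rasgef1a was at 18.9 CPM in the ESC library and 9.57 and 30.1 CPM in the iPSC libraries of day 25. Rasgef1a was at 0.961, 0.905 and 1.51 CPM in the ESC libraries and 1.18 and 3.73 CPM in the iPSC libraries of day 18 (log2 difference 2.82, SE 0.43, limma adjusted p = 0.037). The lowest day 25 library was still above iPSC day 18 replicate 2, the highest of day 18. Lrrc27 was at 61.1 CPM in the ESC library and 49.4 and 63.2 CPM in the iPSC libraries of day 25. Lrrc27 was at 10.8, 11.8 and 10.2 CPM in the ESC libraries and 10.4 and 12.5 CPM in the iPSC libraries of day 18 (2.16, SE 0.33, limma adjusted p = 0.037). The 5 day 18 libraries of Lrrc27 lay between 10.2 and 12.5 CPM, and the low-Nrl pair was inside that range.

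**Figure D1:**
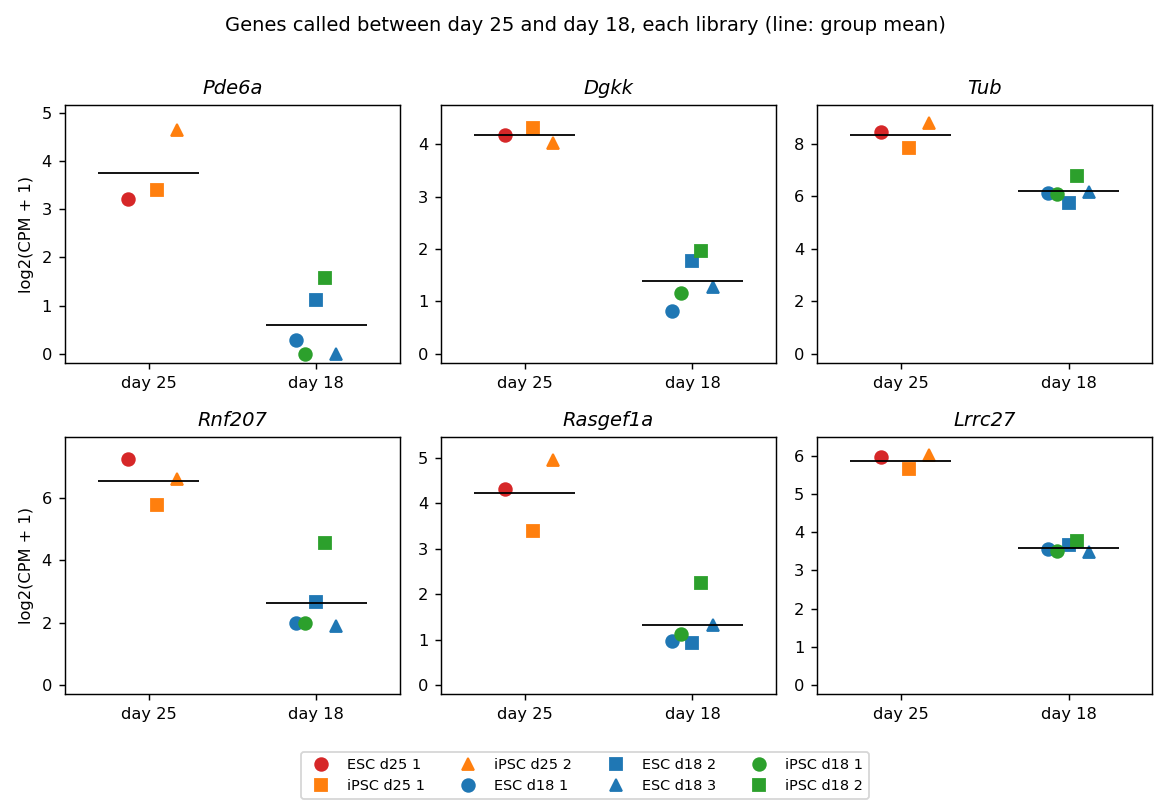
The level of each of the 6 called genes in every library, as log2(CPM + 1), with day 25 left of day 18; points are single libraries, colours and shapes name them, and lines are group means. In all 6 panels the lowest day 25 library lies above the highest day 18 library, and in all 6 iPSC day 18 replicate 2 is the highest of day 18.

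In GRCm38 Dgkk lies on chromosome X at 6779306 to 6948363, Tub on chromosome 7 at 108950338 to 109034460 and Rnf207 on chromosome 4 at 152307019 to 152318993. Rasgef1a lies on chromosome 6 at 118011438 to 118091546 and Lrrc27 on chromosome 7 at 139212988 to 139242979. Pde6a is on chromosome 18. The deposited TPM, a level per transcript length, of the transcripts held shows which kinds of transcript made up the level. Protein-coding transcripts gave 100% of the TPM of Dgkk and Rasgef1a in all 8 libraries. For Tub they gave 69.8 to 73.4% at day 25 and 48.3 to 81.9% at day 18, with the remainder in transcripts annotated as retained introns. For Rnf207 retained-intron transcripts gave 60.1 to 67.6% at day 25 and 66.2 to 86.5% at day 18. Its protein-coding transcripts summed to 69.8 TPM in the ESC and 29.8 and 42.3 TPM in the iPSC libraries of day 25. They summed to 0.837, 1.71 and 0.826 TPM in the ESC and 0.606 and 10.3 TPM in the iPSC libraries of day 18. For Lrrc27 protein-coding transcripts gave 33.3 to 46.9% at day 25 and 54.4 to 64.0% at day 18, without overlap. Even so they summed to 33.5 to 58.8 TPM at day 25, against 11.3 to 15.9 TPM at day 18. These shares were not tested.

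The call of the 6 genes depended on which libraries were kept and on other settings of the test, while their direction stayed the same in the settings tried. With every day 25 value above every day 18 value, the direction could hardly turn, so it is no added support. Their log2 differences with 1 library left out ranged from 2.66 to 3.26 for Pde6a, 2.45 to 2.80 for Dgkk, 1.87 to 2.38 for Tub, 3.11 to 4.39 for Rnf207, 2.52 to 3.27 for Rasgef1a and 1.89 to 2.33 for Lrrc27. The number of limma calls was 0 without ESC day 18 replicate 1 (2811 genes at an unadjusted p under 0.05), without ESC day 18 replicate 3 (3744) and without iPSC day 18 replicate 1 (1981). It was also 0 without ESC day 25 (1331), without iPSC day 25 replicate 2 (2143), without ESC day 21 replicate 2 (3488) and without iPSC day 21 (3444). It was 3 without ESC day 28 or iPSC day 28, 10 and 15 without ESC day 21 replicate 1 or 3, 32 without ESC day 18 replicate 2, and 26 and 25 without ESC or iPSC day 35. It was 356 without iPSC day 25 replicate 1, with 300 higher and 56 lower, and 1005 without iPSC day 18 replicate 2, with 854 higher and 151 lower. Without both low-Nrl libraries of day 18 it was 0 (0%), with 1313 genes at an unadjusted p under 0.05. The log2 differences were then 2.6 for Pde6a, 2.34 for Dgkk, 1.98 for Tub, 3.31 for Rnf207, 2.6 for Rasgef1a and 2.05 for Lrrc27. Without the pair of day 18 libraries whose Y-linked genes set them apart from others of their source, ESC replicate 1 and iPSC replicate 2, 110 genes (0.724%) were called, 108 higher and 2 lower, and all 6 were among them.

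**Figure D2:**
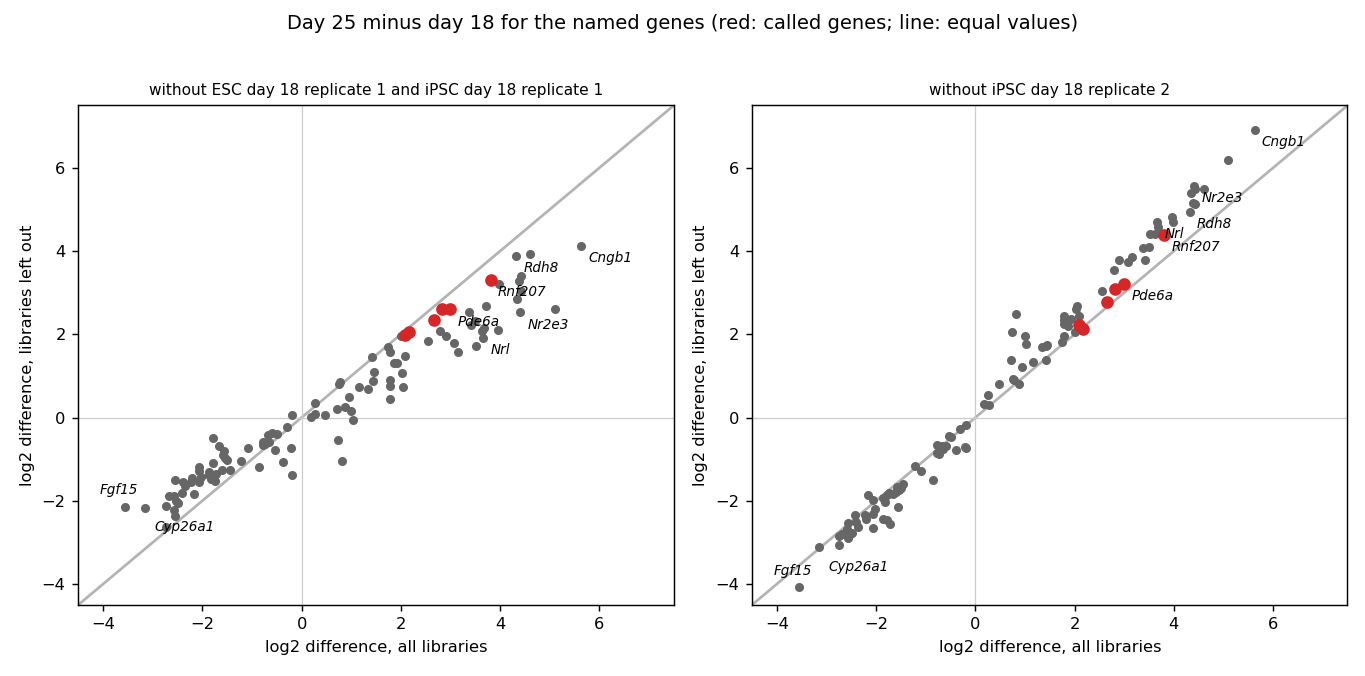
Log2 difference, day 25 minus day 18, of each of 110 named genes with all libraries (horizontal axis) and with libraries left out (vertical axis); red points are the 6 called genes and the line marks equal values. Without the low-Nrl pair (left panel) Cngb1, Nr2e3 and Nrl move toward 0 more than the called genes do, and without iPSC day 18 replicate 2 (right panel) they move away from 0. At day 18 these genes are lowest in the pair and highest in iPSC replicate 2, so both moves follow from the libraries chosen. The called genes passed a test that favours a small spread, so the contrast with them is no added result.

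Of the genes of rod phototransduction, 1 of the 19 tested rose, Pde6a, and 0 fell. All 19 had a positive difference, with a median of 2.87 against 0.00 over all genes. In 14 (73.7%) the 3 day 25 libraries lay wholly above the 5 day 18 libraries, which was so for 8.53% of all genes. These counts rest on single libraries, for lists and for all genes alike, and leaving out a library can only keep or raise them. Without the low-Nrl pair the count stayed at 14 (73.7%), against 9.61% of all genes. Without iPSC day 18 replicate 2 the groups did not overlap in 18 of the 19 (94.7%), against 17.7% of all genes, and without iPSC day 25 replicate 1 in 17 (89.5%), against 17.9% of all genes. Guca1a, which activates the retinal guanylate cyclases, was under 1 CPM in all 8 libraries and was not tested. In bulk samples of this kind fewer cells of a type and less RNA per cell cannot be told apart.

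The channel subunit Cngb1 was at 304, 166 and 484 CPM in the ESC, iPSC 1 and iPSC 2 libraries of day 25. Cngb1 was at 0.285, 8.40 and 0.941 CPM in the ESC libraries and 0.214 and 95.01 CPM in the iPSC libraries of day 18 (log2 difference 5.63, limma adjusted p = 0.082). The highest day 18 library thus stayed below the lowest day 25 one. Its partner Cnga1 was at 43.5, 26.2 and 234 CPM at day 25. Cnga1 was at 0, 5.04 and 0.15 CPM in the ESC libraries and 0.048 and 17.3 CPM in the iPSC libraries of day 18 (4.38, adjusted p = 0.092). Neither passed, and in both iPSC day 18 replicate 2 was the highest library of day 18. Among the phosphodiesterase subunits, Pde6b was at 958, 541 and 1246 CPM at day 25. Pde6b was at 1.45, 274 and 27.2 CPM in the ESC libraries and 0.925 and 232 CPM in the iPSC libraries of day 18 (5.10, adjusted p = 0.098). ESC replicate 2 was its highest day 18 library. Pde6g, the inhibitory subunit, was at 129, 72.4 and 243 CPM at day 25. Pde6g was at 0.876, 15.1 and 5.27 CPM in the ESC libraries and 0.401 and 26.9 CPM in the iPSC libraries of day 18 (4.42, adjusted p = 0.082). On the log2(CPM + 1) scale Pde6a had the smallest difference of these subunits, and the added 1 shrinks a gene this low the most. Its mean CPM was 13.9 at day 25 and 0.669 at day 18, against 148 and 9.69 for Pde6g and 915 and 107 for Pde6b. The ranking thus holds on that scale only. The narrow range of Pde6a at day 18, 0 to 1.96 CPM, lies near the floor.

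Gnat1, the rod transducin alpha subunit, had a smaller difference than most of the list, at 11.49, 13.9 and 21.2 CPM in the ESC, iPSC 1 and iPSC 2 libraries of day 25. Gnat1 was at 5.17, 4.29 and 1.97 CPM in the ESC libraries and 4.68 and 5.73 CPM in the iPSC libraries of day 18 (log2 difference 1.42, limma adjusted p = 0.10). The groups did not overlap, and the low-Nrl pair was not below the other day 18 libraries. The other transducin subunits Gngt1 (gamma) and Gnb1 (beta) had log2 differences of 3.50 and 1.41, the calcium sensor recoverin Rcvrn 3.98, arrestin Sag 3.52 and the guanylate cyclase Gucy2e 3.36. The second cyclase, Gucy2f, had the smallest difference of the list, 0.19, with 0.06 to 1.83 CPM at day 25 and 0.124 to 5.28 CPM at day 18. Order within the groups was nearly constant. Of day 25, iPSC replicate 2 was the highest in 17 and iPSC replicate 1 the lowest in 16 of the 19 genes, and iPSC day 18 replicate 2 was the highest of day 18 in 14.

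**Figure D3:**
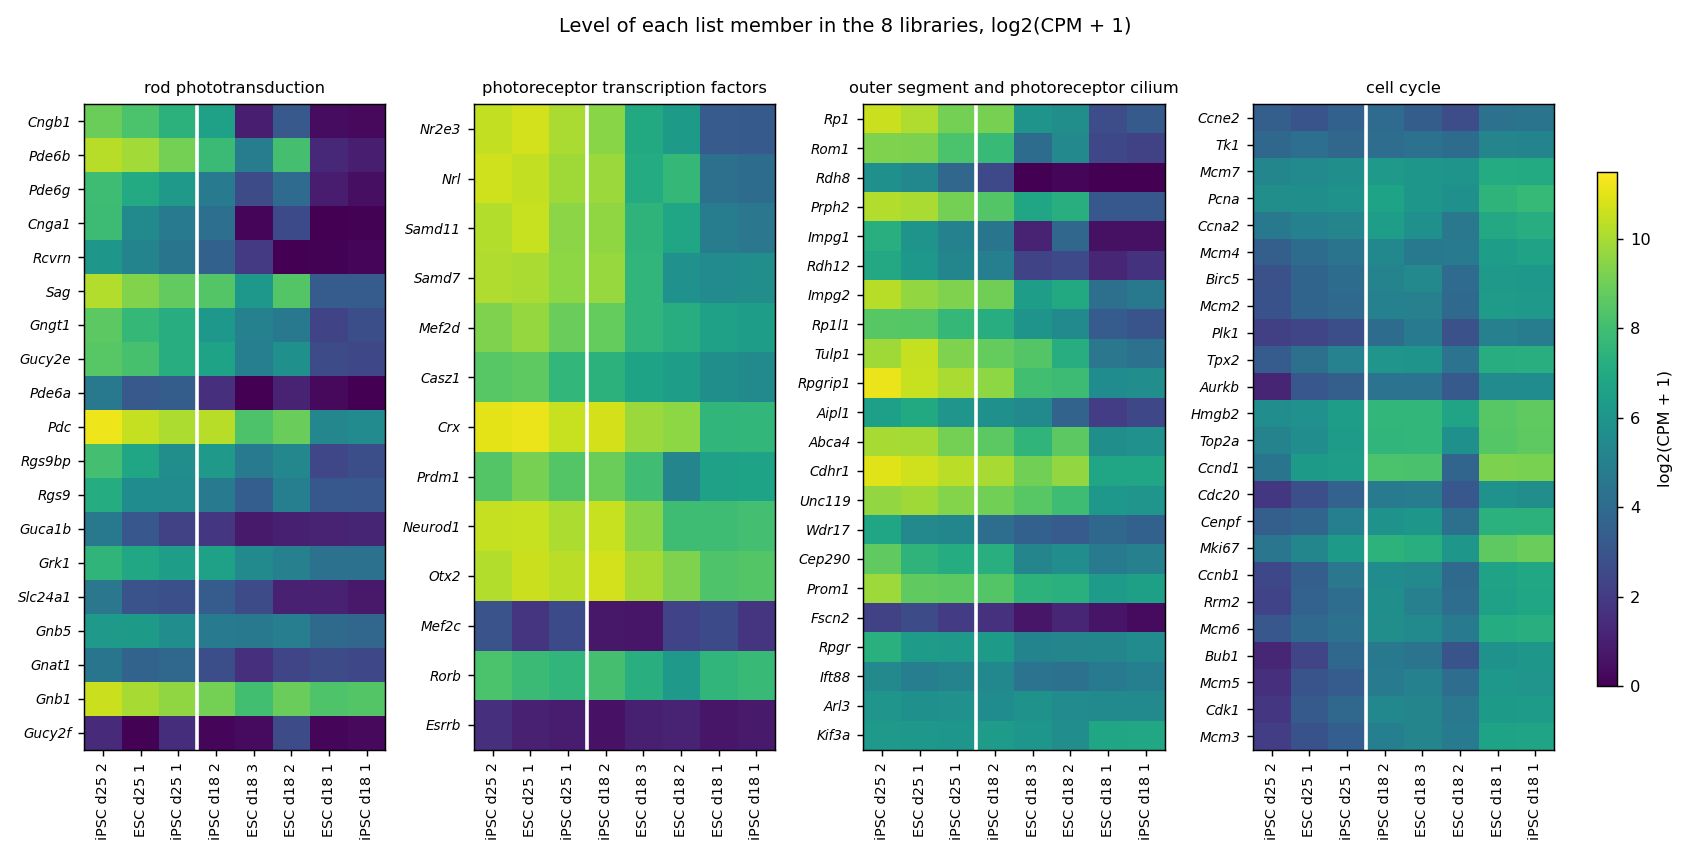
Level of every tested member of 4 lists in the 8 libraries as colour on a log2(CPM + 1) scale; columns are libraries, the 3 of day 25 left of the white line and the 5 of day 18 right of it, and genes run from the largest to the smallest difference. The first column right of the line, iPSC day 18 replicate 2, looks more like the day 25 columns than the last 2, the low-Nrl pair, do.

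The promoters of phototransduction genes are shown because these genes differed together and their known regulators were measured. Sequences are RefSeq promoters of GRCm38.p6, from 250 bases before to 50 after a gene's start. Searched on both strands were TAATCC, the core bound by CRX, and TGCTGA, part of the element bound by NRL and related factors. The letters of the 2 motifs do not overlap, and matches on either strand are in capitals. On either strand, TAATCC stood in 8 of 14 phototransduction promoters held (57.1%) and in 7.06% of all 32851 promoters. It stood in 5 of 27 promoters of the outer segment list (18.5%) and in 1 of 19 of the cell cycle list (5.26%). For the ribbon synapse list it was 6 of 24 (25%), and for retinal progenitor genes 1 of 19 (5.26%). The TGCTGA motif stood in 4 of the 14 (28.6%) and in 19.5% of all. Its share was 29.6% in the outer segment list, 20.8% in the ribbon synapse list, 15.8% in the cell cycle list and 26.3% in the retinal progenitor list. Cngb1 (chr8:95306536-95306835, minus strand) held 2 TAATCC cores, Cnga1 (chr5:72642703-72643002, minus strand) 1, and Pde6b (chr5:108388123-108388422, plus strand) 1 TGCTGA. Rom1 (chr19:8929307-8929606, minus strand), picked with these for its large difference, held neither motif, and its letters are not printed. Of the 6 called genes, 4 had promoters in the table, 6 in all. None held TAATCC, and the second promoter of Lrrc27 (chr7:139213025-139213324, plus strand) held TGCTGA on the other strand. The promoter of Tub (chr7:109010630-109010929, plus strand) held neither. A match is a description of letters and not of binding.
Cngb1: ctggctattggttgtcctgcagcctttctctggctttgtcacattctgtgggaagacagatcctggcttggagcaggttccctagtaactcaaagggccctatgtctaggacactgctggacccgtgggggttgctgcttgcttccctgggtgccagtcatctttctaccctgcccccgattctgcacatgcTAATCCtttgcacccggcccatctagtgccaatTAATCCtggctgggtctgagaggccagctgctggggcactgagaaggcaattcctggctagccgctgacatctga
Cnga1: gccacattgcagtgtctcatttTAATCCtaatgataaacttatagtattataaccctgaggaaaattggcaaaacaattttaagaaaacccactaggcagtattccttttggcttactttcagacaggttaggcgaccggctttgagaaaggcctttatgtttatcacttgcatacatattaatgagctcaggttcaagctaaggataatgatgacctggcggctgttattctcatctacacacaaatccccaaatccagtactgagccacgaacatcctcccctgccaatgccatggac
Pde6b: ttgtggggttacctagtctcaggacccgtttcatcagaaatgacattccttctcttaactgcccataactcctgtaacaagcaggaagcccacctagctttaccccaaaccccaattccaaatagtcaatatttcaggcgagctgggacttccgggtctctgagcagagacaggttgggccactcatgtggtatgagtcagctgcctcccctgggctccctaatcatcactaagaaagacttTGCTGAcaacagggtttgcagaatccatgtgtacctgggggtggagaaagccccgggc
Lrrc27: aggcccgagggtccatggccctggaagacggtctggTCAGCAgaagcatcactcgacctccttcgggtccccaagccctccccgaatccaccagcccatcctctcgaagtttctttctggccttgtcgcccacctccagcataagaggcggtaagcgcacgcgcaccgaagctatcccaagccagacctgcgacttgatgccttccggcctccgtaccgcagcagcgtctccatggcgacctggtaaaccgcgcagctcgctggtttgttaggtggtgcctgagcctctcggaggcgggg
Tub: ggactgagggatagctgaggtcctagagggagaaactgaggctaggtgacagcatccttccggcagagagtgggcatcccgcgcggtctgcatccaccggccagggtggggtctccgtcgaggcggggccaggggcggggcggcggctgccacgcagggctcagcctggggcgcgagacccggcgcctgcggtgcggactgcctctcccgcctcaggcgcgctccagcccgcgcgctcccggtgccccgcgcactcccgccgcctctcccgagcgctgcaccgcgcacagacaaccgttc

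Of 13 transcription factors of photoreceptors, 0 passed in either direction (limma). All had positive differences with a median of 1.79, and 4 (30.8%), Nrl, Nr2e3, Mef2d and Casz1, had no overlap, against 8.53% of all genes. That count was 10 (76.9%) without iPSC day 18 replicate 2 and 7 (53.8%) without iPSC day 25 replicate 1, against 17.7% and 17.9% of all genes. Nrl was at 1396, 932 and 1628 CPM in the ESC, iPSC 1 and iPSC 2 libraries of day 25. Nrl was at 17.7, 203 and 136 CPM in the ESC libraries and 15.99 and 881 CPM in the iPSC libraries of day 18 (log2 difference 3.66, SE 1.11, limma adjusted p = 0.10). Nr2e3, the nuclear receptor that represses cone genes, was at 1696, 1038 and 1373 CPM at day 25. Nr2e3 was at 8.76, 76.1 and 125 CPM in the ESC libraries and 8.65 and 709 CPM in the iPSC libraries of day 18 (4.41, adjusted p = 0.09). In both the highest day 18 library came close to the lowest day 25 library. Crx, which acts earlier in all photoreceptors, overlapped, with 1466 to 2312 CPM at day 25 and 192 to 1728 CPM at day 18 (1.79, adjusted p = 0.14). Otx2, needed for photoreceptor fate, had 1147 to 1511 CPM at day 25 and 322 to 1690 CPM at day 18 (0.94, adjusted p = 0.24). Without the low-Nrl pair the difference of Nrl was 1.91 (limma adjusted p = 0.56). The pair was picked for its low Nrl, so a smaller difference follows from that choice.

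Of 22 genes of the outer segment and its cilium, 0 passed in either direction (limma), and 21 had positive differences with a median of 2.38. In 16 (72.7%) day 25 lay wholly above day 18, against 8.53% of all genes. Rdh8, the retinol dehydrogenase of the outer segment, was at 39.9, 13.1 and 52.9 CPM in the ESC, iPSC 1 and iPSC 2 libraries of day 25. Rdh8 was at 0, 0.162 and 0 CPM in the ESC libraries and 0 and 4.79 CPM in the iPSC libraries of day 18 (log2 difference 4.32, SE 0.73, limma adjusted p = 0.056). All of its day 18 level but a trace was in iPSC replicate 2. Rom1 and Prph2, the tetraspanins of the disc rim, had log2 differences of 4.35 and 3.96. Wdr17, chosen here for its p-value, was at 42.3, 38.0 and 111 CPM at day 25. Wdr17 was at 13.3, 8.75 and 11.04 CPM in the ESC libraries and 10.95 and 16.7 CPM in the iPSC libraries of day 18 (2.01, adjusted p = 0.056). The groups did not overlap. The transport genes Arl3, Ift88 and Kif3a, which most ciliated cells use, had differences of 0.25, 0.29 and -0.24, and all 3 overlapped. Cep290 and Rpgr, cilium genes also used beyond photoreceptors, had larger ones of 2.01 and 0.96, and both overlapped.

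The inner segment is where the cell makes its energy and sets its dark current. Of 9 of its channels and pumps, 0 passed in either direction (limma), and all were positive with a median of 1.84. In 5 (55.6%) day 25 lay wholly above day 18, against 8.53% of all genes. Without either iPSC day 18 replicate 2 or iPSC day 25 replicate 1 it was 8 (88.9%), against 17.7% and 17.9% of all genes. Kcnv2, a potassium channel subunit of photoreceptors, had a log2 difference of 3.72. Kcnv2 was at 227, 124 and 262 CPM in the ESC, iPSC 1 and iPSC 2 libraries of day 25, against 4.07, 7.72 and 23.1 CPM in the ESC libraries and 4.24 and 71.0 CPM in the iPSC libraries of day 18. Ckmt1, a mitochondrial creatine kinase, was even among replicates, with 29.5, 26.4 and 31.8 CPM at day 25, against 7.39, 5.61 and 7.18 CPM in the ESC libraries and 7.41 and 10.1 CPM in the iPSC libraries of day 18 (1.75, adjusted p = 0.065).

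Of 19 genes of the ribbon synapse, 0 passed in either direction (limma), and 17 were positive with a median of 1.94. In 9 (47.4%) day 25 lay wholly above day 18, against 8.53% of all genes. Leaving out iPSC day 18 replicate 2 or iPSC day 25 replicate 1 gave 14 (73.7%) above day 18, against 17.7% and 17.9% of all genes. Cacna1f, the calcium channel of photoreceptor terminals, was at 72.9, 61.1 and 155 CPM in the ESC, iPSC 1 and iPSC 2 libraries of day 25. Cacna1f was at 1.15, 23.3 and 6.43 CPM in the ESC libraries and 1.78 and 20.1 CPM in the iPSC libraries of day 18 (log2 difference 3.41, limma adjusted p = 0.082). Lrit1, a leucine-rich repeat protein of photoreceptor terminals, had a difference of 3.63 and Cacna2d4, a channel partner, one of 2.66. The scaffold genes that other neurons also use, Bsn, Rims2 and Pclo, differed by 0.25, 0.58 and 1.45, and of these only Pclo had no overlap. Further members not particular to photoreceptors varied widely. Stx3, Sv2b and Syp differed by 2.11, 1.94 and 1.78, and Dag1 and Nrxn3 by -0.02 and -0.82.

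Of 12 cone genes tested, 0 passed (limma), and 8 were positive with a median of 0.22. In 2 (16.7%), Opn1sw and Rxrg, day 25 lay wholly above day 18, against 8.53% of all genes. That count became 4 (33.3%) without iPSC day 18 replicate 2, against 17.7% of all genes. Opn1sw, the short-wavelength cone opsin, was at 210, 167 and 225 CPM in the ESC, iPSC 1 and iPSC 2 libraries of day 25. Opn1sw was at 3.36, 21.5 and 47.5 CPM in the ESC libraries and 2.04 and 84.3 CPM in the iPSC libraries of day 18 (log2 difference 3.68, SE 1.02, limma adjusted p = 0.091). Its values followed the order seen in rod genes, lowest in the low-Nrl pair and highest at day 18 in iPSC replicate 2. Other cone genes were also at substantial levels, with overlap. Gnb3 was at 748 to 1262 CPM at day 25 and 68.9 to 1013 CPM at day 18 (1.79, limma adjusted p = 0.18). Gngt2 was at 335.5 to 460.5 CPM and 25.45 to 350 CPM (2.05, limma adjusted p = 0.14). Thrb was at 89.5 to 176 CPM and 47.9 to 317 CPM (0.23). Opn1mw, the other cone opsin, was at 0 in all 8 libraries, and Arr3, cone arrestin, was at 4.37 to 5.82 CPM at day 25 and 0.436 to 10.3 CPM at day 18. Gnat2, cone transducin, was at 2.16 to 5.08 CPM at day 25 and 3.06 to 27.8 CPM at day 18 (-1.05, adjusted p = 0.30).

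On the side of lower levels at day 25, 0 genes passed. All 24 cell cycle genes had negative differences with a median of -1.87. In 10 (41.7%) day 25 lay wholly below day 18, which was so for 7.93% of all genes. Without iPSC day 25 replicate 1 it was 20 (83.3%), against 17.3% of all genes, and without ESC day 18 replicate 2 it was 22 (91.7%), against 13.3% of all genes. Mcm3, a subunit of the replicative helicase, was at 6.39, 9.90 and 3.28 CPM in the ESC, iPSC 1 and iPSC 2 libraries of day 25. Mcm3 was at 99.6, 26.4 and 36.6 CPM in the ESC libraries and 103 and 30.1 CPM in the iPSC libraries of day 18 (log2 difference -2.68, limma adjusted p = 0.092). Cdk1, the kinase of entry into mitosis, was at 8.65, 13.2 and 2.54 CPM at day 25, against 74.9, 23.6 and 36.2 CPM in the ESC libraries and 81.6 and 40.7 CPM in the iPSC libraries of day 18 (-2.42, adjusted p = 0.11). In both genes the low-Nrl pair was highest and no day 25 library reached day 18. Mki67 overlapped, at 38.0, 77.1 and 21.9 CPM at day 25, against 406, 66.4 and 146 CPM in the ESC libraries and 462 and 172 CPM in the iPSC libraries of day 18 (-2.07, adjusted p = 0.24). ESC replicate 2 was the lowest day 18 library of Mki67. The summed level of the list was 337 to 742 CPM at day 25 and 641 to 3766 CPM at day 18, with the low-Nrl pair at 3521 and 3766 CPM. Without that pair the list's median difference was -1.18.

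Retinal progenitor genes showed the same side, 18 of 20 negative with a median of -1.67, and 0 passed (limma). In 6 (30%) day 25 lay wholly below day 18, against 7.93% of all genes. Without ESC day 18 replicate 2 it was 13 (65%), against 13.3% of all genes. Pax6, which progenitors and several other retinal neurons express, was at 54.1, 99.4 and 18.1 CPM in the ESC, iPSC 1 and iPSC 2 libraries of day 25. Pax6 was at 446, 176 and 234 CPM in the ESC libraries and 488 and 162 CPM in the iPSC libraries of day 18 (log2 difference -2.24, limma adjusted p = 0.16). Fgf15, a growth factor of progenitors, overlapped, with 21.5, 86.1 and 1.52 CPM at day 25. Fgf15 was at 801, 28.6 and 387 CPM in the ESC libraries and 868 and 63.8 CPM in the iPSC libraries of day 18 (-3.56, adjusted p = 0.15). Rax and Six3, eye-field factors, were the exceptions, with differences of 0.95 and 0.10. Without the low-Nrl pair 16 of the 20 were negative with a median of -1.03.

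**Figure D4:**
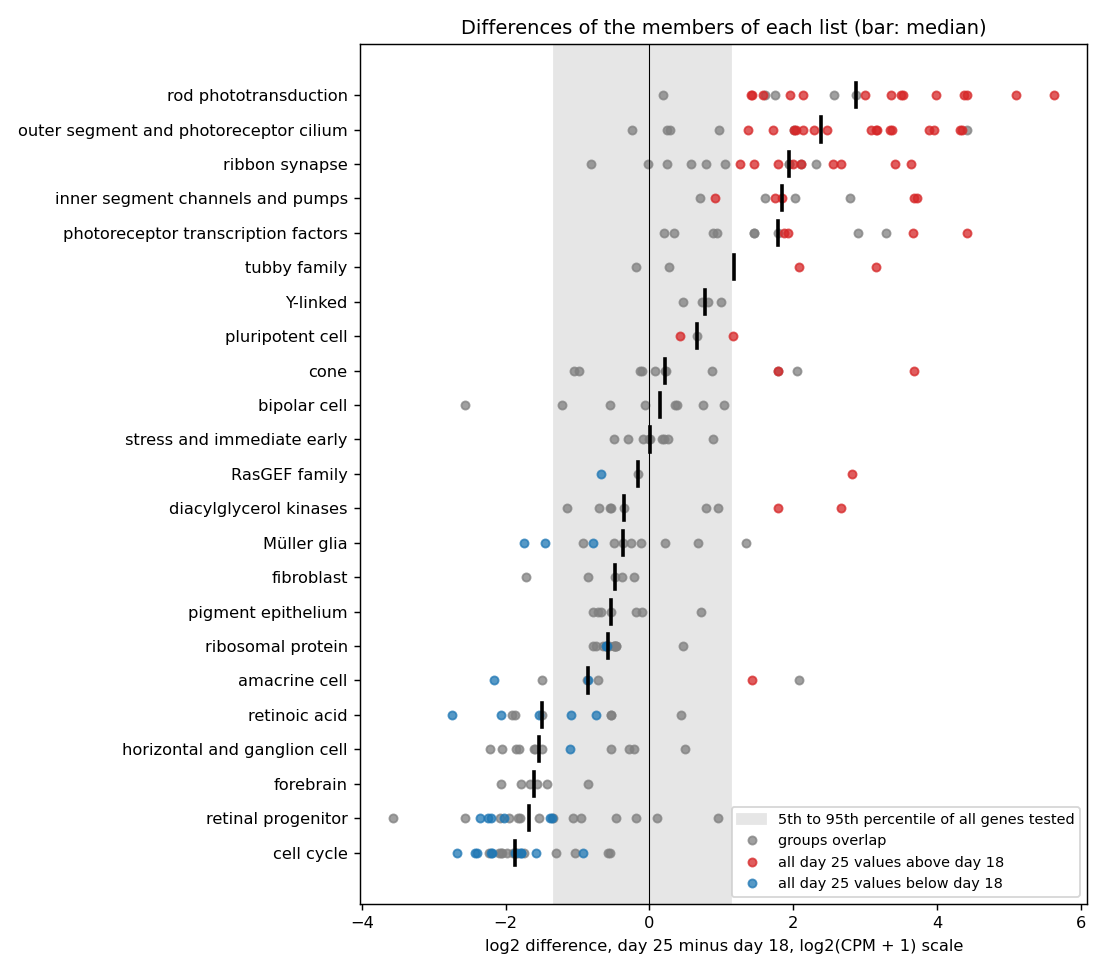
Log2 difference, day 25 minus day 18, of each tested member of 23 gene lists (points), with the list median (bar) and a grey band for the central range of all tested genes; red and blue points mark genes whose groups did not overlap. Rod, outer segment, synapse and inner segment lists lie to the right and cell cycle, forebrain and progenitor lists to the left, with medians of 2.87 for rod phototransduction and -1.87 for the cell cycle.

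Genes of retinoic acid handling were lower in 10 of 11 cases, with a median of -1.50, and 0 passed (limma). In 5 (45.5%) day 25 lay wholly below day 18, against 7.93% of all genes. Cyp26a1, an enzyme that degrades retinoic acid, was at 2.78, 7.49 and 3.59 CPM in the ESC, iPSC 1 and iPSC 2 libraries of day 25. Cyp26a1 was at 63.1, 56.7 and 25.1 CPM in the ESC libraries and 68.2 and 14.3 CPM in the iPSC libraries of day 18 (log2 difference -2.74, limma adjusted p = 0.089). Its relative Cyp26b1 was at 361, 205 and 101.3 CPM at day 25, against 265, 87.1 and 196 CPM in the ESC libraries and 245 and 174 CPM in the iPSC libraries of day 18, with overlap (0.44, adjusted p = 0.73). Rarb, a retinoic acid receptor that retinoic acid itself turns on, was at 14.8 to 25.5 CPM at day 25 and 33.7 to 107 CPM at day 18 (-1.54, adjusted p = 0.12).

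Relatives of the called genes were mixed, and none of them passed. Of the tubby family, Tulp1, a photoreceptor protein whose loss causes retinal degeneration, was at 1415, 626 and 923 CPM in the ESC, iPSC 1 and iPSC 2 libraries of day 25. Tulp1 was at 22.9, 143 and 340 CPM in the ESC libraries and 19.2 and 437 CPM in the iPSC libraries of day 18 (log2 difference 3.15, limma adjusted p = 0.10). Tulp3 and Tulp4 differed by 0.27 and -0.19, and both overlapped. Of the diacylglycerol kinases, Dgke was at 238, 144 and 330 CPM at day 25, against 47.3, 57.3 and 44.7 CPM in the ESC libraries and 52.4 and 104 CPM in the iPSC libraries of day 18 (1.78, adjusted p = 0.081), without overlap. The remaining 7 members tested lay between -1.15 and 0.95. Rasgef1b was lower in every day 25 library (-0.68, adjusted p = 0.17), and Rasgef1c was at 0 to 0.309 CPM at day 25 and 0.088 to 0.442 CPM at day 18.

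The difference between day 25 and day 18 was set against its counterpart in the other source by an interaction contrast, in which ESC day 25 is 1 library. No gene passed, 0% of those tested (limma, smallest adjusted p = 0.92), and 61 genes, 0.401% of those tested, had an unadjusted p under 0.05. Within ESCs the log2 differences were 2.74 for Pde6a, 2.90 for Dgkk, 2.42 for Tub, 5.06 for Rnf207, 3.24 for Rasgef1a and 2.38 for Lrrc27. Within iPSCs they were 3.24 for Pde6a, 2.6 for Dgkk, 1.87 for Tub, 2.92 for Rnf207, 2.5 for Rasgef1a and 2.20 for Lrrc27. The same direction in both sources follows from how the 6 genes lie, every day 25 value above every day 18 value, and is no added support. The model had 1 mean per group, so the spread used within a source was pooled over all 16 libraries. The limma count within a source was 0 in each, with 2189 genes at an unadjusted p under 0.05 in ESCs and 1325 in iPSCs. Rnf207 had the widest gap between sources, -2.14 for iPSCs minus ESCs with an unadjusted interaction p of 0.0793.

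Against the neighbouring days, 0 genes (0%) passed between day 25 and day 21 (limma), and 656 genes, 4.32%, had an unadjusted p under 0.05. Between day 35 and day 25 limma called 10 genes, 0.0658% of those tested, 6 (0.0395%) higher and 4 (0.0263%) lower at day 35. These contrasts share the day 25 libraries with the comparison of day 25 and day 18 and are set beside it as values only. Pde6a was called in both, and was at 126 CPM in the ESC and 226 CPM in the iPSC library of day 35 (log2 difference 3.76, limma adjusted p = 0.028). Gnat1 was at 139 and 248 CPM at day 35, against 11.49, 13.9 and 21.2 CPM at day 25 (3.68, adjusted p = 0.038). Esrrb, a nuclear receptor of rods, was at 21.9 and 47.1 CPM at day 35, against 1.08, 0.893 and 2.00 CPM at day 25 (3.95, adjusted p = 0.023). Esrrb had been at 0.482 to 1.13 CPM at day 18. Cyp26b1 was at 5.69 and 2.53 CPM at day 35, against 361, 205 and 101.3 CPM at day 25 (-5.54, adjusted p = 0.047).

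Over the 5 days the called genes took different courses. Pde6a was at 0 to 1.96 CPM at day 18, 2.08 to 3.29 at day 21, 8.21 to 23.9 at day 25, 29.2 and 66.4 at day 28 and 126 and 226 at day 35, with no overlap between successive days. Dgkk was at 0.757 to 2.91 CPM at day 18, 4.35 to 14.2 at day 21, 15.2 to 18.7 at day 25, 2.08 and 5.95 at day 28 and 2.92 and 3.58 at day 35, so its highest values were those of day 25. For Dgkk the difference between day 35 and day 25, -2.01, did not pass (limma adjusted p = 0.11). Opn1sw was at 2.04 to 84.3 CPM at day 18, 39.0 to 460 at day 21, 167 to 225 at day 25, 40.5 and 92.0 at day 28 and 3.09 and 4.20 at day 35 (a difference of -5.49 between day 35 and day 25, limma adjusted p = 0.12). Tub, Rnf207, Rasgef1a and Lrrc27 had differences between day 35 and day 25 of 0.60, 0.49, -0.10 and -0.39, and none passed.

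**Figure D5:**
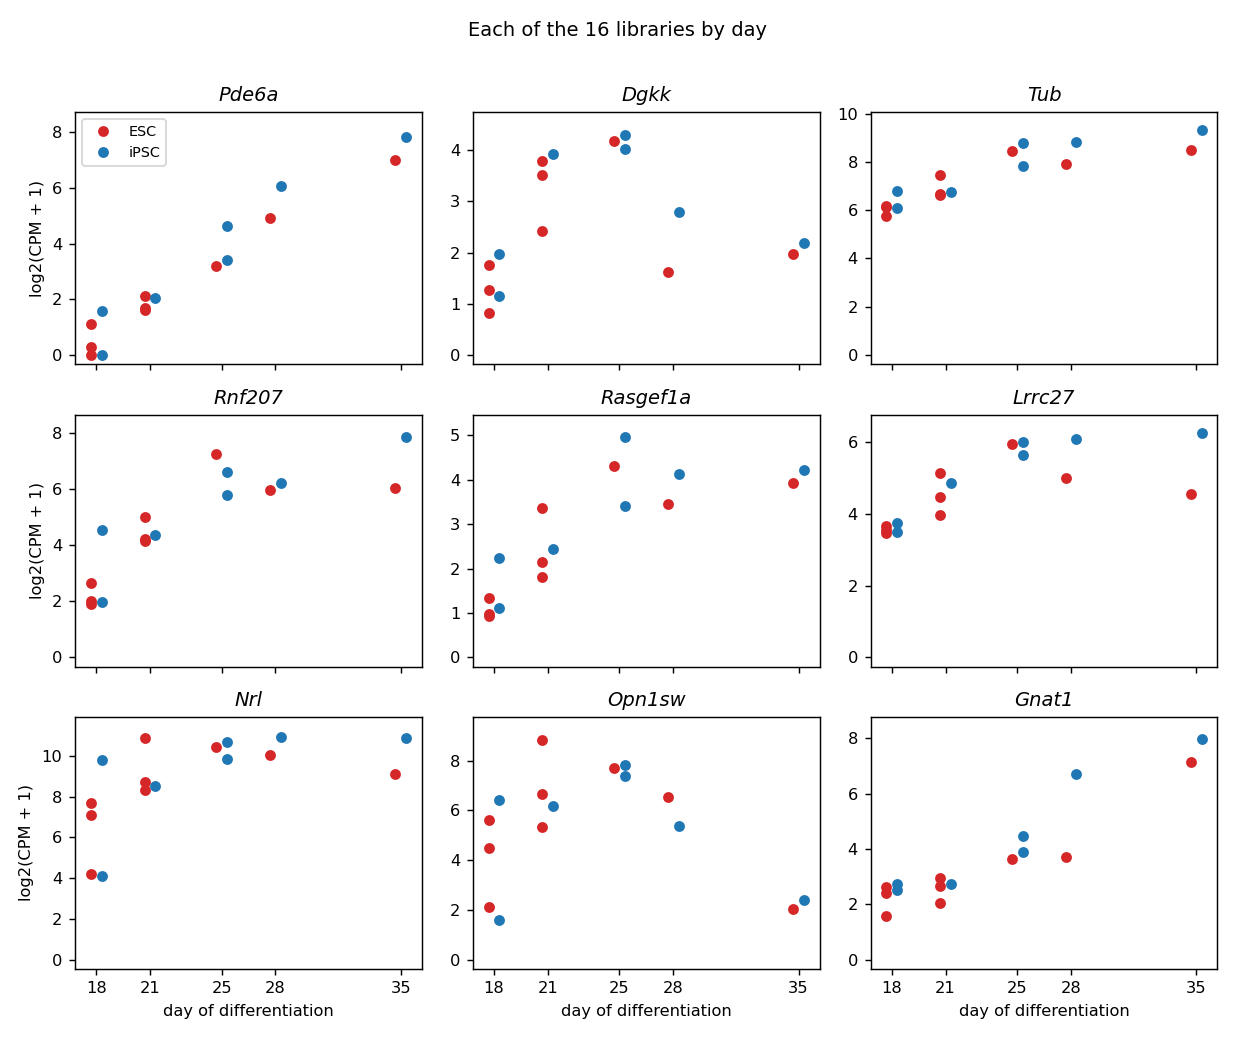
Level of the 6 called genes and of Nrl, Opn1sw and Gnat1 in each of the 16 libraries against the day of differentiation, as log2(CPM + 1), ESC libraries in red and iPSC libraries in blue. Pde6a and Gnat1 are highest at day 35, Dgkk has its highest values at day 25, and Opn1sw is at 3.09 and 4.20 CPM at day 35.

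Markers of cells other than rods followed different libraries. The summed level of 6 forebrain genes was 10.6 to 43.0 CPM at day 25 and 20.3 to 201 CPM at day 18, with the low-Nrl pair at 190 and 201 CPM. The 12 horizontal and ganglion cell genes summed to 144 to 472 CPM at day 25 and 355 to 1015 CPM at day 18, the highest in ESC replicate 3. In 1 of the 12 (8.33%), Prox1, day 25 lay wholly below day 18, against 7.93% of all genes, and without iPSC day 25 replicate 1 this held for 7 (58.3%), against 17.3% of all genes. The 11 Müller glia genes summed to 300 to 466.8 CPM at day 25 and 469.4 to 734 CPM at day 18, so the groups barely missed overlapping. The highest sum was in ESC replicate 2. Of these genes 8 were negative and 3 positive, with a median of -0.37. The positive ones were Apoe, Clu and Rlbp1, at 1.34, 0.68 and 0.21. At day 25, 3 (27.3%), Glul, Vim and Sox9, lay wholly below day 18, against 7.93% of all genes. Bipolar genes summed to 70.9 to 92.7 CPM at day 25 and 72.3 to 151 CPM at day 18, the low-Nrl pair being the lowest. Amacrine genes summed to 156 to 216 CPM at day 25 and 96.5 to 156 CPM at day 18, of which Slc6a9, a glycine transporter, held 117 to 169 CPM at day 25 and 25.4 to 90.8 CPM at day 18. Of 7 amacrine genes tested, 5 were negative, and the median was -0.86. The transcription factors Tfap2a and Tfap2b, 28.6% of the 7, lay wholly below day 18, against 7.93% of all genes. Genes of pigment epithelium summed to 44.7 to 125 CPM at day 25 and 37.7 to 1574 CPM at day 18. The highest sum was in ESC replicate 2, where Ttr alone held 1554 CPM. Of the 7 genes tested, 2 were highest of day 18 in that library. Dct and Tyr had their lowest day 18 values there, 3.11 and 0.116 CPM. Rpe65, the defining enzyme of pigment epithelium, was at 0 in all 8 libraries. The part of these cells in the differences was not tested.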

How the data were processed

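The submitters' processing notes name Trimmomatic 0.36, kallisto 0.42.5, edgeR and the build GRCm38.p4. Libraries came from a stranded mRNA kit, per the labels' protocols; the strand setting of the counting is not given in the sources used here. The deposited gene table of 32166 genes holds a score from -1 to 198.2, read as the square of log2(CPM + 1) minus 1. The check was that in 8488 of 8688 genes (97.7%) the ratio of back-transformed CPM to the deposited TPM of the gene's transcripts was constant across libraries, at a log2 tolerance of 0.0001. The authors' deposited estimated counts and deposited TPM cover 65535 transcripts, and estimated counts, rounded to whole numbers, were summed for the 11535 genes whose transcripts are complete. No column was left unmapped.

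The test was limma 3.58.1 with trend in R 4.3.3 on log2(CPM + 1), two-sided, with day as a factor and source as a covariate. All 16 libraries entered, so that the spread is pooled over 5 days, and 15202 genes were tested, those reaching a CPM of 1 in 2 or more libraries. The interaction contrast used 1 mean per group. Calls were made at an adjusted p (Benjamini-Hochberg) under 0.05. Alternatives were edgeR 4.0.16 and DESeq2 1.42.0 on count sums (at least 10 counts), no source term and the 8 libraries alone. Further ones were a pseudocount of 0.1, no filter and a stricter one, equal column sums, TMM, a replicate block, array weights and libraries left out. Contrasts within each source used the model of 1 mean per group on all 16 libraries.

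The members and gene lists were chosen with earlier results of these data known. Named genes were Pde6a, Rnf207, Dgkk and Tub, each called gene, landmark photoreceptor and progenitor genes, the 10 largest differences each way without overlap at a mean CPM of at least 5, and up to 4 members of each of 23 lists by p-value, 110 in all. Predicted gene models were left out of the largest differences and of the ranking by gap. Some genes of this rule and of the lists are not reported here and enter none of the list counts. Other list members are named to show a list's range and were chosen after their values were seen, as were Ttr, Opn1mw, Rpe65 and the genes called between day 35 and day 25.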

Additional observations from a re-analysis of the deposited data

Results flagged for a closer look

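In each of 110 named genes the 5 day 18 libraries were checked for a highest or lowest library that stands far from the other 4 on the log2(CPM + 1) scale, and 9 genes had one. Chance gives about 1 in 20. The 3 day 25 libraries are too few for this check.

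In iPSC day 18 replicate 2, Bpifb6 was at 12.8 CPM, with 0 to 0.254 CPM in the remaining 4. Rdh8, the outer segment retinol dehydrogenase, was at 4.79 CPM there and at 0 to 0.162 CPM in the remaining 4. In the same library Lhx1, a horizontal cell factor, was low at 0.643 CPM against 7.27 to 11.03 CPM, Vim, an intermediate filament of progenitors and glia, was low at 113 CPM against 195 to 234 CPM, and the immediate early gene Jun was high at 167 CPM against 57.3 to 73.4 CPM. Jun was at 147, 85.1 and 80.9 CPM in the ESC, iPSC 1 and iPSC 2 libraries of day 25.

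In ESC day 18 replicate 2, the collagen gene Col3a1 was high at 90.1 CPM, with 0.83 to 2.20 CPM in the remaining 4. In ESC day 18 replicate 3, the pigment gene Pmel was high at 19.7 CPM against 3.70 to 5.11 CPM, the chaperone gene Hspa5 was low at 242 CPM against 365 to 429 CPM, and the stress factor Atf3 was low at 2.96 CPM against 7.97 to 10.7 CPM. Of the 9, 5 were in iPSC replicate 2, 1 in ESC replicate 2 and 3 in ESC replicate 3.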

How the results depend on the processing

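The count of genes called between day 25 and day 18 (6 as reported) was 2 with only the 8 libraries of these days (1 of the 6 among them), 957 with DESeq2, 305 without the source term, 0 within ESCs and 0 within iPSCs, 2 with no filter (0 of the 6 among them), 11 with CPM rescaled to the same sum, 9552 with array weights, 0 without the low-Nrl pair of day 18 and 110 without the pair with unlike Y-linked genes, ESC replicate 1 and iPSC replicate 2 of day 18. With 1 library left out it ran from 0 to 1005. Each library left out lowers the number of samples, and the count fell in some of these cases and rose in others. The cause of these changes was not tested. It was 6 with edgeR, 5 with a pseudocount of 0.1, 8 with the stricter filter and 7 with TMM. Rescaling to the same sum moved the median difference of all genes by -0.13 on the log2 scale. With a replicate block, on the replicate numbers of the titles, 2159 genes were called, 1258 higher and 901 lower, and all 6 were among them. The labels do not say that a number marks a shared batch, and the deviations of the 2 iPSC pairs of days 18 and 25 correlated at 0.38. With 2 pairs this does not settle whether the numbers pair the samples, and the block was not used.

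Between day 25 and day 21 the limma count was 1 with array weights and 0 in every other setting run, including each library left out (0 to 0). Between day 35 and day 25 (10 as reported) it was 16 with no filter, 5 with CPM rescaled, 6 with TMM, 20 with the replicate block, 0 with array weights, 0 without the pair with unlike Y-linked genes, and 0 to 240 with 1 library left out. The interaction called 81 genes with no filter and 0 in the other settings run. It could not be computed without ESC day 25.

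Of 3334 values of the 110 named genes under 31 alternatives, 2916 kept their direction and their side of the threshold, 302 passed in addition, 79 no longer passed and 37, in 13 genes, changed sign. With edgeR the signs turned for Uty (-0.19), Ddx3y (-0.70) and Eif2s3y (-0.89), with DESeq2 for Uty (-0.20), Ddx3y (-0.72) and Eif2s3y (-0.92), and with no source term for Ddx3y (-0.06) and Eif2s3y (-0.21). Within iPSCs they turned for Ttr (2.21), Col1a1 (0.57), Col1a2 (1.09), Col3a1 (1.54), Atf4 (-0.03), Jun (-0.34), Uty (-0.26), Kdm5d (-0.15), Ddx3y (-1.0) and Eif2s3y (-1.04). With array weights they turned for Ttr (0.74) and Col1a2 (0.11), and without the low-Nrl pair for Pcp2 (-0.07), Tulp4 (0.06), Ddx3y (-0.54) and Eif2s3y (-1.04). With 1 library left out the difference ran from -0.14 to 2.06 for Ddx3y, -0.19 to 2.48 for Eif2s3y, -0.72 to 1.19 for Ttr, -0.89 to 0.34 for Col1a2, -1.15 to 0.81 for Col3a1, -1.38 to 0.23 for Pmel, -0.08 to 0.36 for Atf4 and -0.32 to 0.55 for Jun. None of these genes was called.

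Depth limits the low genes: 1 estimated count was worth 0.0371 to 0.1525 CPM at day 18 and 0.0615 to 0.1311 CPM at day 25.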

Other observations

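Genes outside the lists also separated the days. Genes with a mean of at least 5 CPM, predicted gene models left out, were ranked after their values were seen. The rank was by the gap between the lowest day 25 and the highest day 18 library. Col5a3, a fibrillar collagen chain, came after Dgkk and Lrrc27. It was at 174, 75.7 and 105 CPM in the ESC, iPSC 1 and iPSC 2 libraries of day 25, against 1.92, 3.28 and 4.68 CPM in the ESC libraries and 1.03 and 22.0 CPM in the iPSC libraries of day 18 (log2 difference 4.28, limma adjusted p = 0.053). The collagens of fibroblasts did not have this pattern: Col1a1 was at 0.967, 7.46 and 0.908 CPM at day 25, against 2.38, 34.1 and 10.2 CPM in the ESC libraries and 4.11 and 0.433 CPM in the iPSC libraries of day 18. Plch2, a phospholipase C that makes diacylglycerol, was at 180, 80.3 and 156 CPM at day 25, against 11.8, 31.3 and 20.6 CPM in the ESC libraries and 8.37 and 30.2 CPM in the iPSC libraries of day 18 (2.76, adjusted p = 0.065). Bpifb6 was at 91.8, 26.6 and 43.3 CPM at day 25, against 0, 0 and 0.254 CPM in the ESC libraries and 0 and 12.8 CPM in the iPSC libraries of day 18 (4.60, adjusted p = 0.056), and Pcdh15, a cadherin of hair cells and photoreceptors, had a difference of 4.43. None of these passed.

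Genes wholly lower at day 25 were ranked under the same limits, a mean of at least 5 CPM and no predicted gene models. Nme2, a nucleoside diphosphate kinase, had the widest gap. It was at 7.60, 5.22 and 1.59 CPM in the ESC, iPSC 1 and iPSC 2 libraries of day 25, against 38.5, 23.1 and 37.6 CPM in the ESC libraries and 49.8 and 22.1 CPM in the iPSC libraries of day 18 (log2 difference -2.58, limma adjusted p = 0.081). Nnat, an imprinted gene of developing neurons, was at 36.8, 120 and 37.8 CPM at day 25, against 408, 290 and 515 CPM in the ESC libraries and 395 and 184 CPM in the iPSC libraries of day 18 (-2.55). Exo1, an exonuclease of DNA repair, had the largest difference of the genes so ranked, -3.16. Pcdhga8 followed at -2.74, and it shares exons with its gene cluster and is uncertain for that reason. St8sia2, which adds polysialic acid, Mdk, a growth factor of the embryo, and Uhrf1, which maintains DNA methylation, had differences of -2.53, -2.49 and -2.40. Ribosomal protein genes were lower in 13 of 14 cases with a median of -0.57. In 2 (14.3%) day 25 lay wholly below day 18, against 7.93% of all genes. This count was 11 (78.6%) without iPSC day 25 replicate 1, against 17.3% of all genes, and 5 (35.7%) without ESC day 18 replicate 2, against 13.3%. The 9 stress and immediate early genes had a median of 0.01, and 0 (0%) had no overlap, against 8.53% of all genes above and 7.93% below day 18. Without iPSC day 18 replicate 2, 2 (22.2%) lay wholly above day 18, against 17.7% of all genes. Lin28a and Nanog, pluripotency genes, were at 8.58 to 9.54 and 0.887 to 1.43 CPM at day 25 and at 1.66 to 6.39 and 0.257 to 0.705 CPM at day 18, and neither passed.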
